A study of Mus musculus with 6 samples.

Results

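The IL-6 and IL-1 receptor to STAT3 genes are 10 genes that carry inflammatory cytokine signals into the liver cell. They are the receptor chains Il6ra, Il6st and Osmr, the kinases Jak1 and Jak2, the transcription factor Stat3, its feedback inhibitor Socs3, the IL-1 receptor chains Il1r1 and Il1rap, and the receptor antagonist Il1rn. Their probes were found by gene symbol through the transcript accession of each probe, which gave 12 probes of the 39429 on the array. All 10 genes were among the 18004 genes in the fit. Liver RNA came from 3 Itpr2 KO mice and 3 wild-type (WT) mice, all 23 months old, untreated members of a survival cohort on the C57Bl/6 background with standard diet and housing. Itpr2 encodes an inositol trisphosphate receptor, a calcium release channel of the endoplasmic reticulum. The allele, the cells in which the gene is deleted and the sex of the mice are not stated in the labels, which name no treatment or deletion shared by both groups. The question is how these genes differ between old livers of Itpr2 KO and WT mice.

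IL-6 binds its receptor Il6ra, and the pair engages gp130, the product of Il6st, whose cytoplasmic tail holds the Janus kinases. These phosphorylate STAT3, which enters the nucleus and switches on acute-phase genes together with Socs3, and SOCS3 protein then shuts gp130 and the kinases down. IL-1 signals through Il1r1 and its partner Il1rap to NF-kB, and the hepatocyte combines both inputs in the acute-phase response.

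Levels are log2 intensities minus the array's own 75th percentile, so levels of different probes cannot be set against each other, and changes are KO minus WT. On the 6 arrays, 58.7% to 60.6% of probes passed the scanner's call of well above background, and no spot was saturated. The Itpr2 probe had levels of 2.54, 2.38 and 2.20 in KO livers, against 3.04, 3.07 and 3.08 in WT livers, a change of -0.69 ± 0.13 (SE, limma adjusted p = 0.813) with all KO mice below all WT mice. Where the probe lies relative to the deletion is unknown here, so it does not check the labels. All 12 hepatocyte markers were measured. Of 12 listed markers of striated muscle 4 were measured, and their median was high on KO 3 and WT 1. It was 1.84 and 1.94 there, against -3.98 to -3.54 on the other arrays. Mylpf, 1 of the 4, was not raised on KO 3 and WT 1, at -3.78 and -3.51. The array of the first KO mouse, KO 1, stood apart for these genes. KO 1 was the highest of the 6 arrays for 8 of the 10 genes, where it was highest for 16.9% of all genes, so the changes of the 10 genes and of the pathway lists are given with and without it.

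None of the 10 genes passed the threshold of an adjusted p of 0.05 in the limma fit, in which 0.00555% of all genes passed. Adjusted p ran from 0.813 for Stat3 to 0.995 for Il1rn. Stat3 was the 1 gene of the 10 with an unadjusted p under 0.05, a mark reached by 6.12% of all genes. KO and WT levels overlapped for all 10 genes, so that 0 of the 10 had separate groups, against 12% of all genes. A two-sided exact permutation test over the 6 arrays, whose smallest possible p is 0.1, gave p from 0.2 to 1.0 for the 10 genes. In bulk liver RNA, a change in the number of cells of a type and a change in RNA per cell cannot be told apart.

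The 250 bases before the transcription start are shown for Socs3, the classical direct target of STAT3, and for Il1r1 and Osmr, the other genes for which KO 1 stood farthest above the other arrays. The sequences are those of RefSeq in assembly GRCm38.p6, 5′ to 3′ on the strand of the gene. Capitals mark the STAT motif TTCNNNGAA in Socs3 and the C/EBP motif TTGCNNAA in Il1r1. Il1r1 has another start further downstream, which is not shown.
Socs3, chr11:117969367-117969616, minus strand: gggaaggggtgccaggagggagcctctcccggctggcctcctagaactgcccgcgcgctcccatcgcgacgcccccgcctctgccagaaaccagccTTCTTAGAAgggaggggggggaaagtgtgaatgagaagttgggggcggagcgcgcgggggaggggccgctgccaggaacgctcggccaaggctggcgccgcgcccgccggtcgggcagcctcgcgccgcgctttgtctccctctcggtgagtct
Il1r1, chr1:40224830-40225079, plus strand: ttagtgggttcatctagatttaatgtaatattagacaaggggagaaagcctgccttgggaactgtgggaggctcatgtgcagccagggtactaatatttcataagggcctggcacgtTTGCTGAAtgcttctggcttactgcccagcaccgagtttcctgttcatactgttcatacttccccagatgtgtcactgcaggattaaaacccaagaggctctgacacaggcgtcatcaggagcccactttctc
Osmr, chr15:6874314-6874563, minus strand: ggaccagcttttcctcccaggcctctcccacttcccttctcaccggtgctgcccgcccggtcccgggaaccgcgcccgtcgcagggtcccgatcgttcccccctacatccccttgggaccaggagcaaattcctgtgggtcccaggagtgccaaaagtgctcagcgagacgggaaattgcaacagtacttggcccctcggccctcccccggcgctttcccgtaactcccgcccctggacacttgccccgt
The promoter table had entries for all 10 genes, with 13 starts. On either strand, and with no overlap between the motifs, TTCNNNGAA was found in 1 of these 13 windows, that of Socs3, from 154 to 146 bases before the start. It was found in 7.02% of the 32851 windows of the same length in the table. TTGCNNAA was found in 1 of the 13, the upstream start of Il1r1, from 133 to 126 bases before it, and in 9.56% of all windows. These are matches of letters only.

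**Figure D1:**
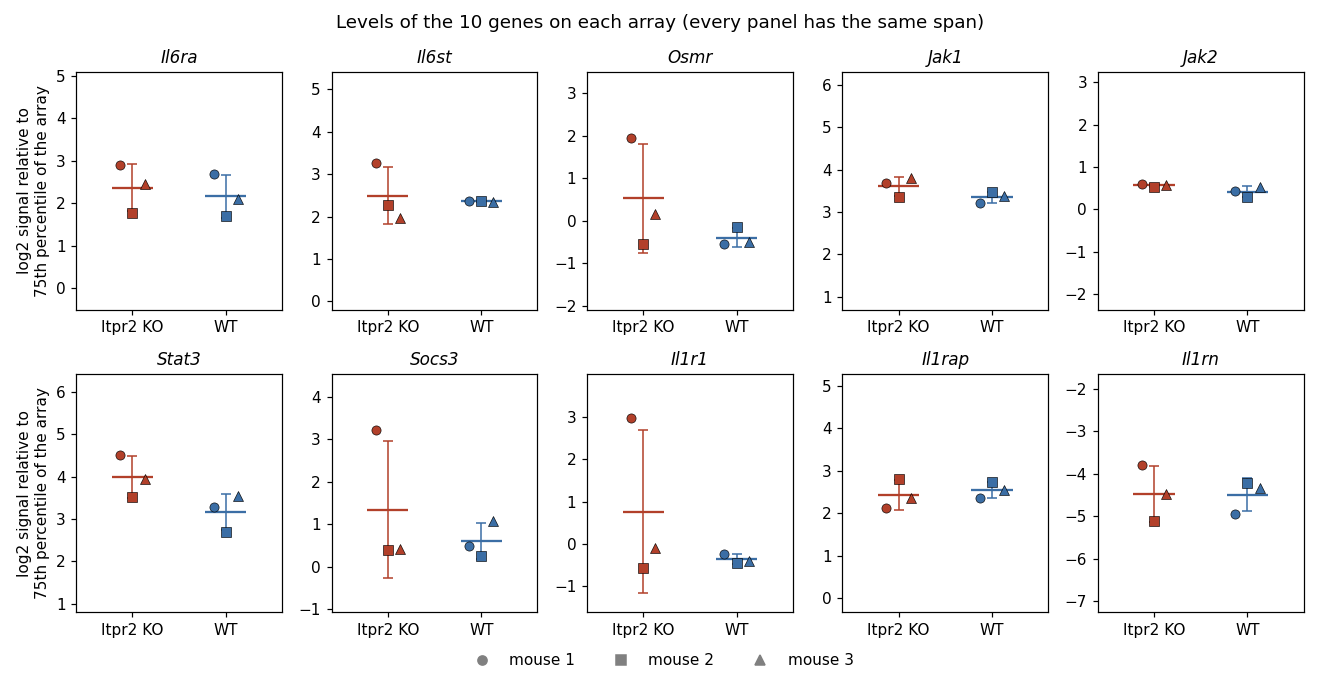
Levels of the 10 genes on each array, as log2 signal relative to the 75th percentile of the array, with Itpr2 KO left of WT in each panel. Symbols are mice, bars the group mean and whiskers the SD (n = 3). KO 1 sits far above the other arrays for Socs3, Il1r1 and Osmr, and the other KO mice lie near the WT mice for these genes.

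Il6ra, the chain that binds IL-6, had levels of 2.89, 1.78 and 2.44 in KO livers, against 2.70, 1.70 and 2.09 in WT livers. Both groups held low and high mice and covered nearly the same range. The change was 0.21 ± 0.36 (SE, n = 3 per group, limma adjusted p = 0.927), and its 95% confidence interval ran from -0.66 to 1.07. It was -0.054 ± 0.36 without KO 1.

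Il6st, which encodes the shared signalling chain gp130, had levels of 3.26, 2.27 and 1.96 in KO livers, against 2.36, 2.37 and 2.34 in WT livers. The WT mice were almost alike, with an SD of 0.015, while KO mice lay on both sides of them. KO 1 was 1.85-fold above the next array, and KO 3 was the lowest of all. The mean change of Il6st was therefore small, at 0.14 ± 0.33 (SE), and was -0.25 ± 0.15 without KO 1.

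Osmr encodes the chain that pairs with gp130 to receive oncostatin M. Its levels were 1.96, -0.54 and 0.16 in KO livers, against -0.54, -0.15 and -0.49 in WT livers. KO 1 alone was high, 3.49-fold above the next array, which was KO 3. The Osmr change was 0.92 ± 0.60 (SE, limma adjusted p = 0.828), and 0.20 ± 0.26 without KO 1.

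The kinase genes varied least. Jak1 had levels of 3.67, 3.35 and 3.79 in KO livers, against 3.21, 3.46 and 3.38 in WT livers, with KO 2 inside the WT range. Jak2 had levels of 0.60, 0.53 and 0.59 in KO livers, against 0.44, 0.29 and 0.54 in WT livers, and only the KO 2 level fell below the highest WT level. Their changes were 0.26 ± 0.16 and 0.15 ± 0.12 (SE), with confidence intervals from -0.13 to 0.64 for Jak1 and from -0.15 to 0.45 for Jak2. Leaving out KO 1 moved them little, to 0.22 for Jak1 and 0.14 for Jak2.

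Stat3 is the transcription factor on which the gp130 receptors converge, and its own gene is one of its targets. Its brighter probe, printed in 10 spots on each array, had levels of 4.51, 3.51 and 3.95 in KO livers, against 3.28, 2.69 and 3.53 in WT livers. The groups met only at KO 2 and WT 3, which were nearly equal. The mean was 1.77-fold higher in KO livers, a log2 change of 0.82 ± 0.32 (SE, limma adjusted p = 0.813). With normexp background correction the Stat3 change was 0.13 (adjusted p = 0.840), and it was 0.77 when spots of high local background were left out of that correction. Without KO 1 the change was 0.56 ± 0.30 with an interval from -0.19 to 1.31. Leaving out WT 2, the lowest array, gave a similar change of 0.59. Stat3 depended on KO 1 less than Socs3, Osmr or Il1r1 did. A dimmer Stat3 probe, designed to another transcript record, ran the same way. It had levels of -1.30, -2.46 and -2.14 in KO livers, against -2.46, -3.31 and -2.31 in WT livers, a change of 0.73 ± 0.38 (SE, adjusted p = 0.806 in a limma fit of all probes).

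Socs3, the feedback inhibitor of gp130 signalling, is transcribed within a short time of STAT3 activation and is a common marker of it. Its levels were 3.21, 0.40 and 0.43 in KO livers, against 0.48, 0.25 and 1.08 in WT livers. KO 1 was 4.38-fold above the next array, WT 3, and the other KO mice lay inside the WT range. The change of Socs3 was 0.74 ± 0.77 (SE, limma adjusted p = 0.870) with all arrays and -0.19 ± 0.27 without KO 1. The Socs3 probe had 1 spot on each array, and the change was 0.57 ± 0.92 (SE) when background outliers were also left out.

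Il1r1 encodes the IL-1 receptor chain that signals, and it had the widest spread of the 10 genes. Its levels were 2.96, -0.57 and -0.10 in KO livers, against -0.23, -0.45 and -0.40 in WT livers. KO 1 was 8.35-fold above the next array, whereas the range over the other 5 arrays was only 0.47. The Il1r1 change was 1.12 ± 0.88 (SE, limma adjusted p = 0.841), and 0.022 ± 0.19 without KO 1, with an interval from -0.45 to 0.50.

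Il1rap, the accessory chain of the IL-1 receptor, was the 1 gene of the 10 with a lower mean in KO livers, and KO 1 was its lowest array. Its levels were 2.12, 2.82 and 2.36 in KO livers, against 2.36, 2.73 and 2.55 in WT livers, a change of -0.12 ± 0.21 (SE) with all arrays and 0.037 ± 0.20 without KO 1. A second Il1rap probe, designed to another transcript record, was well above background on 0 of 6 arrays. Il1rn, whose secreted product occupies the receptor without signalling, had levels of -3.80, -5.12 and -4.49 in KO livers, against -4.94, -4.21 and -4.34 in WT livers. KO 1 was again the highest and KO 2 the lowest array, so that the Il1rn change was 0.026 ± 0.37 (SE) with all arrays and -0.31 ± 0.31 without KO 1.

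KO 1 exceeded every other array by more than 1 on the log2 scale for Socs3, Il1r1 and Osmr, or 3 of the 10 genes, and for 0.699% of all genes. The change had the other sign without KO 1 for 5 of the 10, which were Socs3, Il6ra, Il6st, Il1rap and Il1rn. With all arrays 9 of the 10 had a higher mean in KO livers, where 54.1% of all genes did, and without KO 1 it was 6 of the 10, where 56.4% of all genes did. Adjusted p without KO 1 ran from 0.562 to 0.973, and 0% of all genes passed. Of the 10 genes 0 had an unadjusted p under 0.05 without KO 1, where 9.43% of all genes did. With normexp background correction and all arrays, the changes of Il6ra (-0.36), Il6st (-0.54), Jak1 (-0.43) and Jak2 (-0.16) had the other sign.

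**Figure D2:**
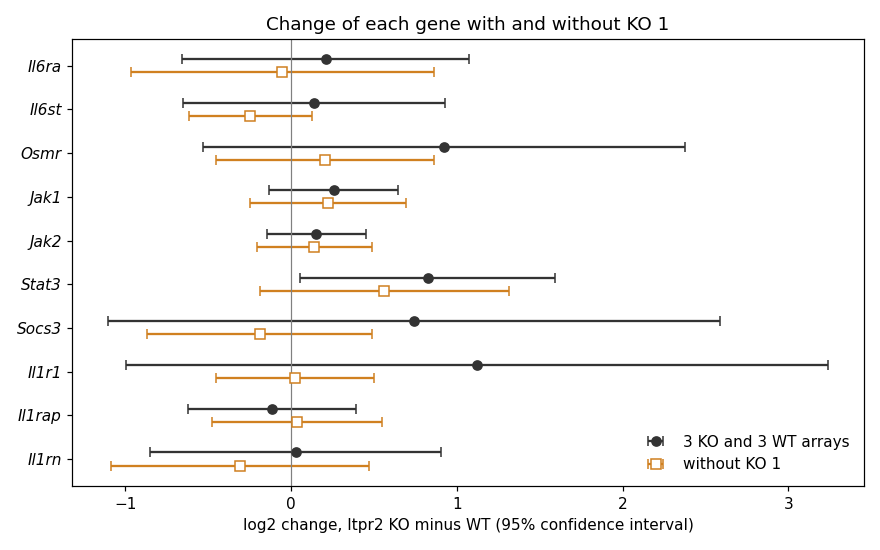
Log2 change of each gene, Itpr2 KO minus WT, with its 95% confidence interval from the limma fit, for all 6 arrays (filled circles) and without KO 1 (open squares). Without KO 1 the estimates lie between -0.31 and 0.56. The intervals of Il1r1, Socs3 and Osmr are much narrower, since the array left out was the extreme one for these genes.

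Each slide held arrays of both genotypes. Slide 1 held KO 1, WT 1 and WT 2, and slide 2 held KO 2, KO 3 and WT 3. Within slide 1, where KO 1 is the only KO array, the changes were 3.30 for Il1r1, 2.85 for Socs3, 2.31 for Osmr and 1.52 for Stat3. Within slide 2, where WT 3 is the only WT array, they were 0.060 for Il1r1, -0.67 for Socs3, 0.30 for Osmr and 0.20 for Stat3. With the slide as a block the adjusted p of the 10 genes ran from 0.938 to 0.978.

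The rest of the pathway was read in 6 lists of ligands, other receptors, other kinases and STATs, other inhibitors, the relay from the IL-1 receptor to NF-kB, and liver genes known to respond to IL-6 or IL-1. Of 124 listed genes 106 were measured. In the limma fit 0 rose and 0 fell, where 0.00555% of all genes passed the threshold. An unadjusted limma p under 0.05 was found for 4 of the 106, where 6.12% of all genes had one. The groups did not overlap for 9 of the 106, beside the 12% of all genes given above.

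Of the 18 ligands 9 were measured. Il6 was well above background on KO 1, WT 1 and WT 3 only, and Osm, which encodes oncostatin M, on 0 of 6 arrays. The KO 1 level of Il6, at -4.97, lay below that of WT 1, at -4.33. Il1b had levels of 0.089, -1.23 and -0.65 in KO livers, against 1.02, -0.84 and -0.50 in WT livers, with WT 1 the highest. Its change was -0.49 ± 0.55 (SE, limma adjusted p = 0.879), and -0.83 without KO 1. Il27, a ligand of the IL-6 family named after its values were seen, had levels of 1.99, -0.31 and 0.75 in KO livers, against 0.94, 0.23 and 1.01 in WT livers. KO 1 was its highest array, 1.98-fold above WT 3, and its change was 0.083 ± 0.57 (SE), and -0.51 without KO 1. Il1a had levels of -4.91, -4.83 and -5.61 in KO livers, against -4.40, -4.65 and -4.52 in WT livers, a change of -0.60 ± 0.23 (SE, limma adjusted p = 0.813) with groups that did not overlap. It was well above background on 2 of 3 KO arrays, and the change was -0.70 without KO 1. Il33, an alarmin of the IL-1 family, had levels of -0.75, -1.67 and -1.13 in KO livers, against -1.99, -1.77 and -2.07 in WT livers. All KO mice were above all WT mice for Il33, with a change of 0.76 ± 0.25 (SE, limma adjusted p = 0.813) that was 0.55 without KO 1. Ctf1, or cardiotrophin 1, had a change of -0.29 ± 0.20 (SE), and -0.26 without KO 1. KO 1 was the highest array for 3 of the 9 measured ligands, where it was highest for 16.9% of all genes. The median change of the ligands was -0.061, beside 0.022 over all genes, and -0.26 without KO 1, beside 0.044.

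Among the other receptors, Lifr, which pairs with gp130 to receive LIF, had levels of 3.29, 3.84 and 4.0 in KO livers, against 4.90, 2.56 and 3.43 in WT livers, so both extremes were WT mice. Its change was 0.084 ± 0.57 (SE), and 0.29 without KO 1. Il1r2, a decoy that binds IL-1 without signalling, was well above background on KO 1, KO 3 and WT 3 only and did not enter the fit. The smallest unadjusted p of this list belonged to Il10ra, Il27ra and Lepr, with changes of -0.57 ± 0.27, -0.30 ± 0.17 and 0.75 ± 0.46 (SE), which were -0.70, -0.36 and 0.57 without KO 1. The median change of the 11 measured receptors was -0.12, and -0.17 without KO 1.

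Among the other kinases and STATs, all 8 listed genes were measured, with a median change of -0.014, and -0.12 without KO 1. KO 1 was the highest array for 2 of them, beside 16.9% of all genes. Stat5b, which carries growth hormone signals, had levels of 2.57, 2.99 and 2.58 in KO livers, against 2.44, 2.24 and 2.54 in WT livers. All KO mice were above all WT mice for Stat5b, by a narrow margin between KO 1 and WT 3. The changes of Stat5b and Stat4 were 0.31 ± 0.17 and -0.51 ± 0.32 (SE, limma adjusted p = 0.814 and 0.821), and without KO 1 they were 0.38 and -0.34.

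Of the 15 other inhibitors measured, KO 1 was the highest array for 4, where it was highest for 16.9% of all genes. It was highest by over 1 on the log2 scale for 0 of the 15, where that held for 0.699% of all genes. The median change of the inhibitors was 0.064, and 0.063 without KO 1. Socs2, induced by growth hormone, had levels of 0.55, 1.06 and 1.77 in KO livers, against 0.97, 0.053 and 0.58 in WT livers, with KO 1 among the lower arrays. Its change was 0.59 ± 0.37 (SE, limma adjusted p = 0.821), and 0.88 without KO 1. Ptpn6 and Pias1, a phosphatase and an inhibitor of activated STATs, had changes of -0.25 ± 0.16 and 0.21 ± 0.15 (SE), which were -0.25 and 0.31 without KO 1. Of the 24 genes of the IL-1 relay KO 1 was the highest array for 13, beside the same 16.9% of all genes. Their median change was 0.052, and -0.012 without KO 1. Tab2, which bridges TRAF6 to the kinase TAK1, Rela, a subunit of NF-kB, and Peli1 had changes of 0.34 ± 0.16, 0.24 ± 0.12 and 0.24 ± 0.15 (SE), which were 0.23, 0.20 and 0.36 without KO 1.

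Liver genes that respond to IL-6 or IL-1 followed Socs3 on KO 1. Of 39 measured genes KO 1 was the highest array for 28, where it was highest for 16.9% of all genes, and highest by over 1 on the log2 scale for 12, where that held for 0.699%. The median of their centred levels, which are levels minus the mean of the gene over the arrays, was 0.83, -0.30 and -0.085 in KO livers, against -0.054, -0.30 and 0.083 in WT livers. The median change of these genes was 0.20, beside 0.022 over all genes, and -0.097 without KO 1, beside 0.044. A higher mean in KO livers was found for 32 of the 39 with all arrays, where 54.1% of all genes had one. Without KO 1 it was found for 14 of the 39, where 56.4% of all genes had one. Among the other 5 arrays WT 3 was the highest for 16 of the 39 and KO 3 for 13, where the shares over all genes were 13.7% and 30.5%.

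**Figure D3:**
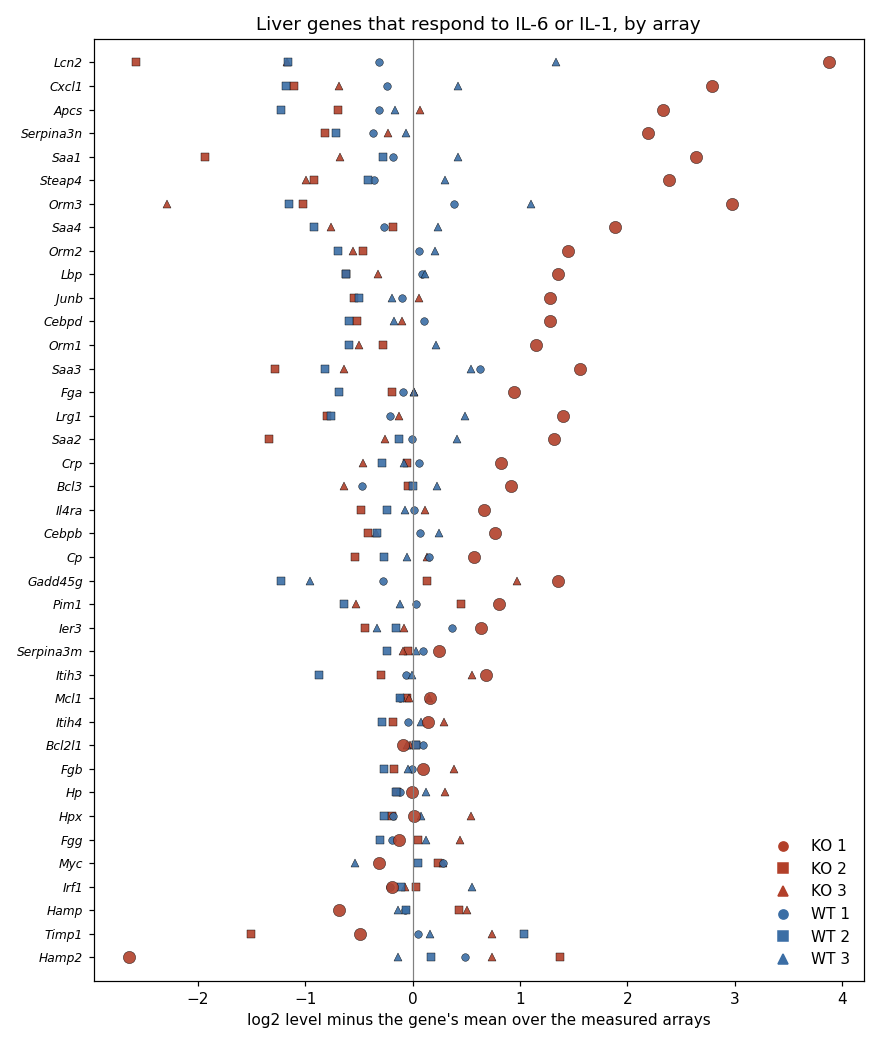
Levels of the 39 measured liver genes that respond to IL-6 or IL-1, each centred on its mean over the measured arrays (log2), sorted by the gap between KO 1 and the highest other array. KO 1, the large red circle, is the highest array for 28 genes and lies far below the others for Hamp2.

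By the smallest unadjusted p the genes of this list were Gadd45g, Itih3 and Fga. Gadd45g, a growth arrest and stress gene, had levels of 5.0, 3.78 and 4.62 in KO livers, against 3.37, 2.42 and 2.69 in WT livers, so that all KO mice were above all WT mice. Its change was 1.64 ± 0.38 (SE, limma adjusted p = 0.813), and 1.37 without KO 1. Itih3, a serum protease inhibitor chain, and Fga, the fibrinogen alpha chain, had changes of 0.63 ± 0.34 and 0.51 ± 0.34 (SE), which were 0.44 and 0.17 without KO 1.

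Other genes of the list, chosen after their values were seen, show how far the KO 1 mouse stood from the rest. Steap4, a metalloreductase induced by inflammation, had levels of 3.49, 0.18 and 0.11 in KO livers, against 0.74, 0.69 and 1.40 in WT livers, and KO 1 was 4.26-fold above the next array. Cebpd, a transcription factor of the acute-phase response, had levels of 3.70, 1.91 and 2.33 in KO livers, against 2.53, 1.84 and 2.25 in WT livers. Cxcl1, a chemokine that attracts neutrophils, had levels of 3.29, -0.61 and -0.19 in KO livers, against 0.26, -0.68 and 0.91 in WT livers. In each of them KO 1 was alone at the top, and for Steap4 and Cxcl1 WT 3 came next. Among acute-phase proteins Lcn2 and Apcs were 5.80-fold and 4.79-fold higher on KO 1 than on the next array. Saa1 was 4.65-fold higher there, but near-identical copies may bind its probe, so its value is uncertain.

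Hepcidin transcripts ran the other way, although IL-6 is known to raise hepcidin. Hamp had levels of 6.44, 7.56 and 7.64 in KO livers, against 7.06, 7.07 and 7.0 in WT livers, with KO 1 the lowest of all. Hamp2 had levels of 3.80, 7.82 and 7.18 in KO livers, against 6.93, 6.62 and 6.31 in WT livers. The copies are alike in sequence, so their probes may share signal. Bcl2l1 and Mcl1, survival genes that STAT3 can raise, stayed within narrow ranges, with KO 1 levels of 3.09 and 3.99, against 3.13 to 3.28 and 3.71 to 3.98 in WT livers.

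In the STAT3 response list TTCNNNGAA was found before the start of 8 of the 33 genes with a promoter entry, or 24.2%, and TTGCNNAA before 12 of the 33, or 36.4%. Over all genes of the table the shares were 8.13% and 10.8%. The list was drawn up from knowledge of IL-6 and IL-1 responses, so these shares describe the list and not the arrays.

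Markers of neutrophils were also high on KO 1, and they were high on KO 3 and low on KO 2. KO 1 was the highest array for all 12 measured of 13 neutrophil markers, where it was highest for 16.9% of all genes. Ly6g had no probe matched by symbol. The median centred level of the neutrophil markers was 1.82, -1.56 and 1.05 in KO livers, against -0.33, -0.67 and 0.12 in WT livers. KO 3, which was next for neutrophil markers, had Socs3, Osmr and Il1r1 levels of 0.43, 0.16 and -0.10. It was also next after KO 1 for Osmr and Il1r1, while its Socs3 level lay inside the WT range. Monocyte and macrophage markers did not single out KO 1. Their median centred levels were -0.071, -0.71 and 0.14 in KO livers, against 0.12, 0.085 and 0.21 in WT livers. For Kupffer cell markers the medians were -0.095, -0.52 and -0.23 in KO livers, against 0.58, -0.096 and 0.36 in WT livers. Endothelial cell markers had medians of 0.23, 0.14 and -0.21 in KO livers, against 0.058, -0.081 and -0.12 in WT livers. Stellate cell markers had medians of -0.11, -0.027 and 0.37 in KO livers, against -0.086, 0.13 and -0.23 in WT livers. The part of these cells in the levels of the 10 genes was not tested.

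**Figure D4:**
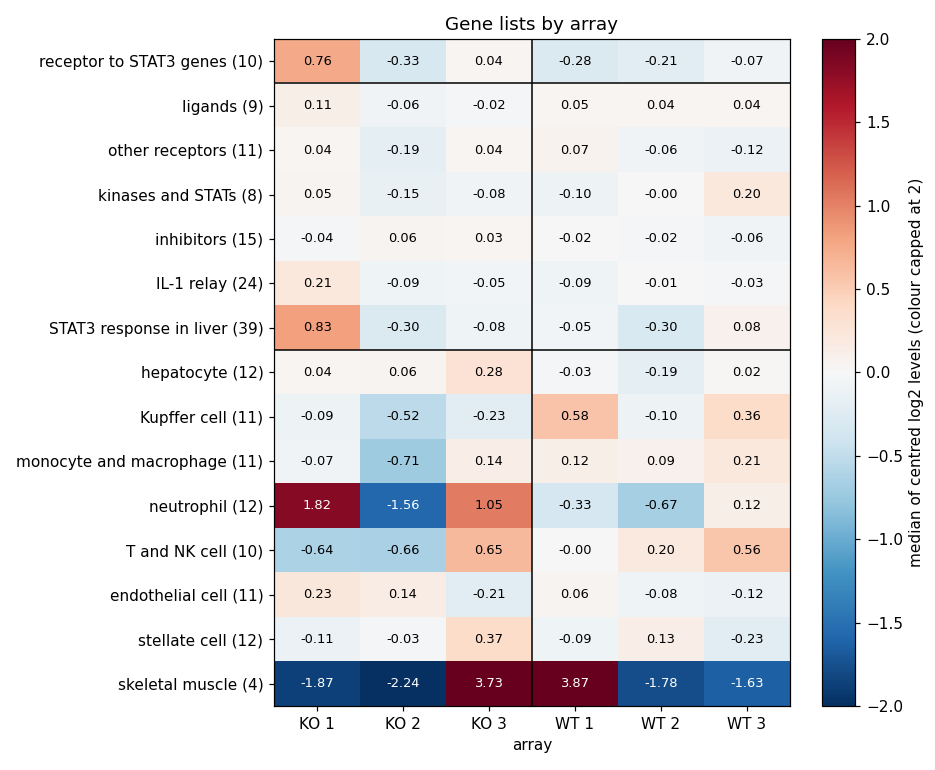
Median centred log2 level of each gene list on each array, KO arrays left of WT arrays, with the number of measured genes in parentheses. The 10 receptor to STAT3 genes, the STAT3 response genes and the neutrophil markers are highest on KO 1, at 0.76, 0.83 and 1.82, and the neutrophil markers are also high on KO 3, at 1.05.

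Genes whose centred levels were closest to those of Stat3 and Socs3 over the 6 arrays were sought among 13584 genes with a symbol, by the root mean square difference. For Stat3 they were Stac2, Olfr524 and Gne, with differences of 0.15, 0.18 and 0.18 on the log2 scale, where the median over all genes was 0.60. For Socs3 they were Serpina3n, Adam11 and Syne4, with 0.18, 0.26 and 0.26, where the median was 1.07. Serpina3n, a protease inhibitor secreted in the acute phase, had levels of 5.66, 2.66 and 3.24 in KO livers, against 3.1, 2.75 and 3.41 in WT livers. This was nearly the profile of Socs3, as the search selects for, and for both genes KO 1 stood far above the other arrays. Serpina3n is also among the liver response genes counted above. Il1r1 and Osmr were added after their values were seen. For Il1r1 the closest genes were Dnajc12, Prss33 and Serpina3n, with 0.30, 0.32 and 0.32. For Osmr the closest genes were Ntf3, Fam222a and Ddit4, with 0.23, 0.32 and 0.33.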

How the data were processed

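Total RNA of frozen liver was labelled with Cy3 and hybridised to 1-colour Agilent arrays, per the labels' protocols. The file headers name Agilent Feature Extraction 11.5.1.1 as the source of the deposited intensity values, the submitters' processing notes name version 10.7.3.1, and the array design is on build mm9 per the file headers. The scanner's processed signal was used. Log2 values were deposited by the authors in a further table with no steps stated, which served as an alternative. Its columns for KO 2 and KO 3 matched the scanner values of KO 3 and KO 2 best, which leaves the genotypes untouched.

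Control spots and 818 spots marked as feature outliers were left out, spots of a probe were averaged, and log2 intensities were taken relative to the 75th percentile of each array's probes. Symbols came from RefSeq accessions (assembly GRCm38.p6), for 28330 of 39429 probes. A probe entered the fit if well above background on all 3 arrays of a genotype, and the brightest probe stood for its gene. KO and WT were compared with limma 3.58.1 in R 4.3.3 (two-sided, Benjamini-Hochberg over all genes, threshold 0.05), a procedure tested on simulated data, and single values by exact permutation. The members, lists and naming rule (3 genes per list by smallest p, chosen ligands and receptors, and the closest profiles) were chosen with earlier results of these data known. A gene that the rule names is not reported here. Alternatives covered scaling, background, filters, probes, slide, replicate number, weights, variance prior and each array left out. The number of arrays limits the precision.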

Additional observations from a re-analysis of the deposited data

How the results depend on the processing

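None of the 10 genes passed the threshold under any of the 22 alternatives with a test, and their smallest adjusted p was 0.138. Of 240 alternative values of their changes, 19 had the other sign. These were, without KO 1, those of Il1rap (0.037), Il1rn (-0.31), Il6ra (-0.054), Il6st (-0.25) and Socs3 (-0.19), and within slide 2 those of Il1rap (0.034), Il1rn (-0.47), Il6st (-0.23) and Socs3 (-0.67). With normexp background correction Il6ra (-0.36), Il6st (-0.54), Jak1 (-0.43) and Jak2 (-0.16) turned. Stat3 was 0.13, Il1rap -0.82 and Il1rn 1.28 there, against 0.82, -0.12 and 0.026 otherwise. The correction was run on the median signal, since the tables read here hold no mean signal column, and KO 1 and KO 2 hold 42 and 79 spots with local background over 100. Leaving those spots out kept the sign of all 10. Il6ra was -0.024 without WT 2. With each array left out the changes ran from -0.31 to 0.037 for Il1rap, -0.31 to 0.35 for Il1rn, -0.054 to 0.51 for Il6ra, -0.25 to 0.41 for Il6st and -0.19 to 1.22 for Socs3. Il1rn was -0.066 with quantile normalization, -0.021 with the slide as a random block, -0.040 with array weights, -0.20 without WT 1 and -0.19 without the 2 muscle arrays. The median change of the STAT3 response genes, 0.20, was -0.097 to 0.40 with each array left out, -0.38 with normexp, and 1.15 and -0.15 within slides 1 and 2. Over all genes 1 passed in limma. It was 0 under normexp without and with that omission (5955 and 1963 genes with an unadjusted p under 0.05), with all 6 arrays above background (1024), with the replicate block (1159) and without the 2 muscle arrays (1343). With each array left out it was 0 to 2, with 0 without KO 1 (1711), KO 2 (1270), WT 1 (877) or WT 2 (685) and 2 without KO 3. Same-numbered mice did not deviate together (correlations of -0.19, 0.042 and -0.28 for numbers 1, 2 and 3), so the numbers were not taken as pairs, and with the replicate block 0 of the 10 genes passed. The normexp run without high background spots, the omission of the 2 muscle arrays (KO 3 and WT 1) and the omission of background outliers were chosen after seeing the data. Arrays number 3 per genotype, and the interval of Il1r1 with all arrays, from -0.99 to 3.24, shows how wide a change these data cannot resolve.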
